A study of Saccharomyces cerevisiae with 8 samples.

Results

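The 9 genes described here make, take up or control the precursors and head groups of the major membrane phospholipids of the yeast Saccharomyces cerevisiae: INO1, ITR1, INO2, OPI1, CHO1, CHO2, OPI3, EPT1 and CPT1. They were found by gene symbol in the platform annotation of the array, which read 5449 S. cerevisiae genes, and each had 1 probe set. RNA was measured on 8 Affymetrix arrays of cultures left to saturate overnight (YPD with 2% glucose, 30 °C). Whether the strains had reached the same growth stage was not tested. The wild type (ESA1 SUP2) had 2 arrays. The single mutant (ESA1 sup2-), with ESA1 intact and SUP2 mutated, had 3 arrays. The double mutant (esa1 sup2-), mutated in both, had 3 arrays. ESA1 encodes an essential histone acetyltransferase, and the series title calls the suppressor a bypass of it. The identity of SUP2 and the kind of esa1 allele are not given in the labels. It is also not stated that the replicates are separate cultures, so the p-values reflect sample-to-sample spread that may be technical.

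Phospholipids in yeast are made by connected routes. In the main one, phosphatidate is activated to CDP-diacylglycerol, which becomes phosphatidylserine or phosphatidylinositol, and phosphatidylserine is converted through phosphatidylethanolamine to phosphatidylcholine. In the Kennedy pathway, ethanolamine and choline from outside or from breakdown are activated and joined to diacylglycerol. Many of these genes carry a shared promoter element bound by the activators Ino2 and Ino4, and the repressor Opi1 holds them down when inositol is plentiful and phosphatidate is used up. INO1, the most strongly controlled of them, is also a classic target of the Rpd3 and Sin3 deacetylase complex, which is brought to its promoter by Ume6.

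A signal here is the linear brightness of a probe set as deposited. A log2 fold change is the difference between strains in log2(signal + 121), and it understates the change of dim genes. A probe set is called when its limma adjusted p, taken over all 4398 tested probe sets, is under 0.05. ESA1 itself read 1067 and 1216 in the wild type, 819 to 894 in the single mutant and 0.27 to 3.34 in the double mutant. The last values were below the background of 11.3 to 12.4 on those arrays, at least 73.3-fold lower than in the single mutant (limma adjusted p = 6.2e-09). Single-mutant replicate 2 stood apart from replicates 1 and 3 (log2 differences had an SD of 0.206 and 0.210, against 0.0900 between those 2). The double-mutant arrays differed more among themselves (0.262 to 0.323). Each strain was processed on a fluidics station of its own, so station and strain cannot be told apart.

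Of the 9 genes, 8 passed the filter on dim probe sets and 1, INO2, did not. No array read any of the 9 below background, and none of their probe sets is marked by the manufacturer as shared with another gene.

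**Figure D1:**
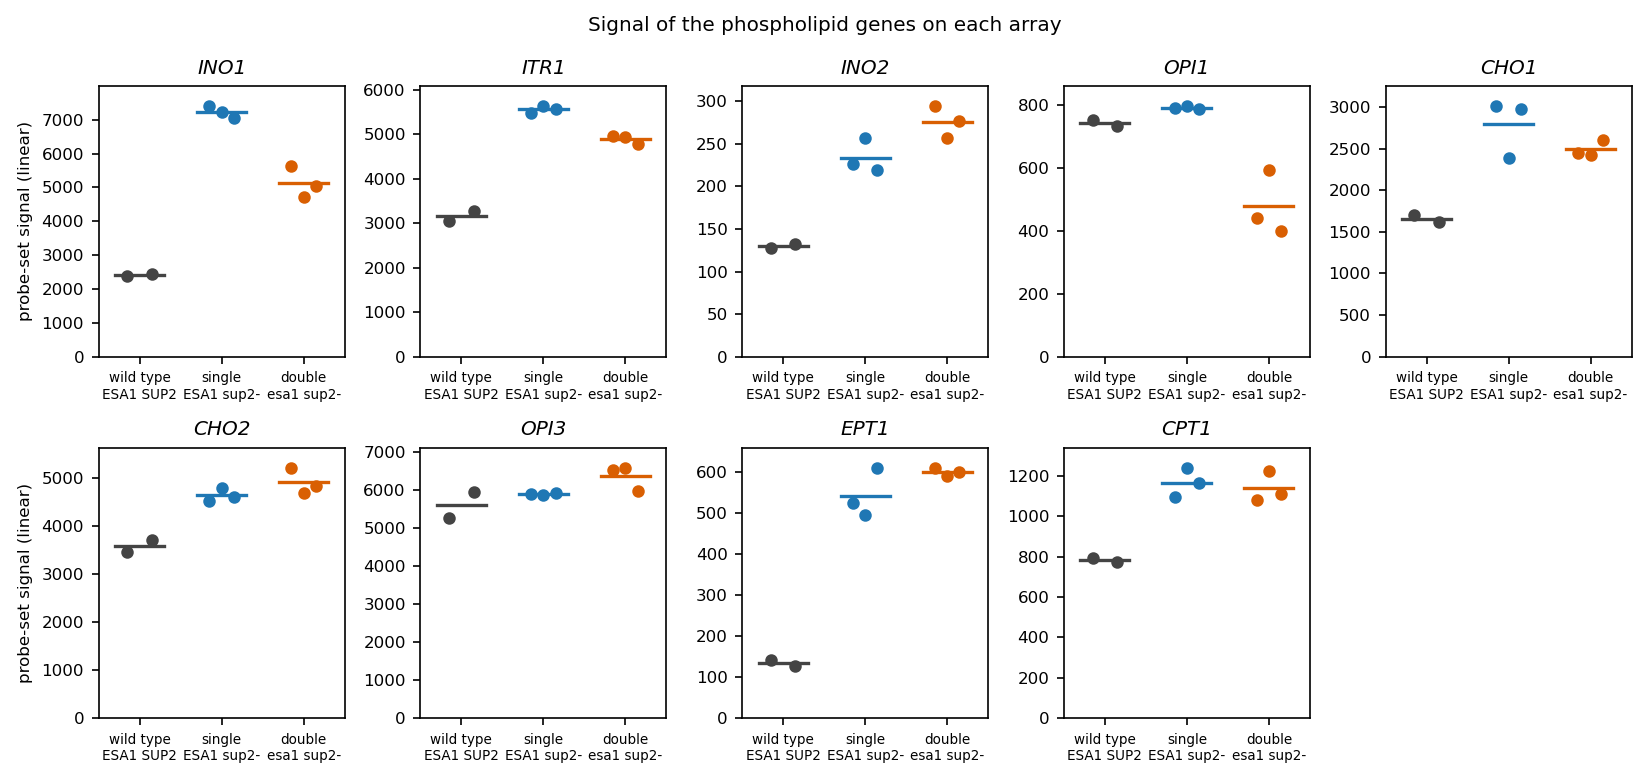
Probe-set signal (linear, each axis from 0) of the 9 phospholipid genes in the wild type (grey), the single mutant (blue) and the double mutant (orange). Points are arrays and bars are strain means. Both wild-type arrays lie below all 6 mutant arrays in every panel except OPI1 and OPI3.

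INO1 and ITR1 were higher in both mutants than in the wild type, and highest in the single mutant. INO1 (YJL153C, chromosome X) encodes inositol-3-phosphate synthase, which makes inositol from glucose 6-phosphate. It read 2390 and 2450 in the wild type, 7404, 7226 and 7058 in the single mutant and 5627, 4733 and 5055 in the double mutant. The 3 strains did not overlap, with the single mutant highest and the wild type lowest. In such RNA from whole cultures, fewer cells of a type and less RNA per cell cannot be told apart. INO1 was 2.99-fold higher in the single mutant than in the wild type (log2 fold change 1.53, SE 0.08, limma adjusted p = 6.2e-06). That was the 24th largest increase of the 4398 tested probe sets. The double mutant was 1.41-fold below the single mutant (log2 fold change -0.49, SE 0.07, limma adjusted p = 3.0e-04), a call lost with scaling on poly-A controls (log2 fold change -0.26, limma adjusted p = 0.185). It was 2.12-fold above the wild type (log2 fold change 1.05, SE 0.08, limma adjusted p = 3.4e-06).

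ITR1 (YDR497C, chromosome IV) encodes the major inositol transporter of the plasma membrane. It had signals of 3053 and 3266 in the wild type, 5475, 5629 and 5574 in the single mutant and 4954, 4932 and 4766 in the double mutant. The order of the strains was that of INO1, again without overlap, over a narrower range. ITR1 was 1.76-fold higher in the single mutant than in the wild type (log2 fold change 0.79, SE 0.06, limma adjusted p = 2.8e-05). In the double mutant it was 1.55-fold above the wild type (log2 fold change 0.61, SE 0.06, limma adjusted p = 2.0e-05). Its decrease from the single to the double mutant was small (log2 fold change -0.18, SE 0.05, limma adjusted p = 0.016). That call was lost without replicate 3 of the single mutant (limma adjusted p = 0.058) and with median centring (log2 fold change -0.05), and the direction turned with scaling on poly-A controls (log2 fold change 0.05).

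The regulators moved apart. INO2 (YDR123C, chromosome IV) encodes the activator that binds the shared promoter element together with Ino4. It was dim, in the lowest 20% of mean signals, with 127 and 133 in the wild type, 226, 256 and 219 in the single mutant and 294, 257 and 277 in the double mutant. The 3 strains did not overlap, though the lowest double-mutant array stood barely above the highest single-mutant array. INO2 was left out of the fit by the filter. In the fit with no filter, over 5498 probe sets, it was 1.80-fold higher in the single mutant than in the wild type (log2 fold change 0.50, SE 0.07, limma adjusted p = 7.3e-04) and 2.12-fold higher in the double mutant (log2 fold change 0.66, SE 0.07, limma adjusted p = 4.8e-05). The double mutant against the single mutant was at 0.16 in log2 units (SE 0.07, limma adjusted p = 0.055).

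OPI1 (YHL020C, chromosome VIII) encodes the repressor of the same genes. Its signal was 752 and 733 in the wild type, 791, 797 and 786 in the single mutant and 441, 592 and 400 in the double mutant. The wild type and single mutant were close to each other, and the double mutant lay below both with a wide spread. Between the single mutant and the wild type the log2 fold change was 0.08 (95% interval -0.20 to 0.36, limma adjusted p = 0.622). OPI1 fell 1.66-fold from the single to the double mutant (log2 fold change -0.62, SE 0.11, limma adjusted p = 1.0e-03). Against the wild type the double mutant was 1.55-fold lower (log2 fold change -0.54, SE 0.12, limma adjusted p = 3.2e-03), which was not called with scaling on poly-A controls (log2 fold change -0.33, limma adjusted p = 0.118). INO4, which encodes the partner of Ino2, read 528 and 403 in the wild type, 517, 408 and 497 in the single mutant and 285, 325 and 296 in the double mutant. Its wild-type and single-mutant arrays overlapped (log2 fold change 0.02, SE 0.12, limma adjusted p = 0.882). The double mutant was lower than the single mutant (log2 fold change -0.49, SE 0.10, limma adjusted p = 2.8e-03) and the wild type (log2 fold change -0.46, SE 0.12, limma adjusted p = 5.5e-03). The last call was lost without wild-type replicate 1 (limma adjusted p = 0.070), and both were lost with scaling on poly-A controls (limma adjusted p = 0.092 and 0.183).

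In the CDP-diacylglycerol route CHO1 and CHO2 were higher in both mutants than in the wild type, and OPI3 was nearly level. CHO1 (YER026C, chromosome V) encodes phosphatidylserine synthase, which makes phosphatidylserine from CDP-diacylglycerol and serine. It had signals of 1701 and 1619 in the wild type, 3010, 2381 and 2978 in the single mutant and 2452, 2427 and 2600 in the double mutant. Both mutants lay above the wild type and overlapped each other. CHO1 was 1.68-fold higher in the single mutant than in the wild type (log2 fold change 0.70, SE 0.11, limma adjusted p = 7.6e-04) and 1.50-fold higher in the double mutant (log2 fold change 0.55, SE 0.11, limma adjusted p = 1.2e-03). Between the mutants the log2 fold change was -0.15 (95% interval -0.36 to 0.07, limma adjusted p = 0.192). The low single-mutant array was replicate 2, the one that stood apart. Without it the double mutant was called lower than the single mutant (log2 fold change -0.25, SE 0.07, limma adjusted p = 0.017), and with scaling on poly-A controls the direction turned (log2 fold change 0.08, limma adjusted p = 0.729).

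CHO2 and OPI3 encode the methyltransferases that turn phosphatidylethanolamine into phosphatidylcholine, Cho2 adding the first methyl group and Opi3 the later ones. CHO2 (YGR157W, chromosome VII) read 3462 and 3701 in the wild type, 4521, 4800 and 4597 in the single mutant and 5215, 4679 and 4831 in the double mutant. Both mutants were above the wild type, and they overlapped each other. CHO2 was 1.30-fold higher in the single mutant than in the wild type (log2 fold change 0.36, SE 0.07, limma adjusted p = 3.0e-03) and 1.37-fold higher in the double mutant (log2 fold change 0.44, SE 0.07, limma adjusted p = 4.2e-04). The first of these was not called with scaling on poly-A controls (log2 fold change 0.39, limma adjusted p = 0.103). From the single to the double mutant it was at 0.08 in log2 units (95% interval -0.07 to 0.22, limma adjusted p = 0.297). CHO2 was called higher there with median centring (log2 fold change 0.21, limma adjusted p = 0.029), and the direction turned with quantile normalization (log2 fold change -0.08) and scaling on hybridization controls (log2 fold change -0.05).

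OPI3 (YJR073C, chromosome X) varied least of the 9 between strains. Its signal was 5254 and 5941 in the wild type, 5894, 5860 and 5910 in the single mutant and 6515, 6584 and 5964 in the double mutant. The single-mutant arrays fell between the wild-type arrays, and all 8 arrays lay within a narrow band. The log2 fold change was 0.07 from the wild type to the single mutant (95% interval -0.09 to 0.24, limma adjusted p = 0.422) and 0.11 in the double against the single mutant (95% interval -0.04 to 0.25, limma adjusted p = 0.170). The first was called higher with scaling on hybridization controls (log2 fold change 0.17, limma adjusted p = 0.022). The second was called in opposite directions, lower with quantile normalization (log2 fold change -0.14, limma adjusted p = 9.9e-03) and higher with median centring (log2 fold change 0.24, limma adjusted p = 0.027). In the double mutant against the wild type it was 0.18 (SE 0.07, limma adjusted p = 0.046), which was not called in 11 of 20 alternatives. The call was lost without wild-type replicate 1 (limma adjusted p = 0.339), without any one of the single-mutant replicates or without double-mutant replicate 1 or 2, and with quantile normalization the direction turned (log2 fold change -0.09).

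In the Kennedy pathway, EPT1 and CPT1 were both higher in the mutants than in the wild type. EPT1 (YHR123W, chromosome VIII) encodes the ethanolamine phosphotransferase, which completes phosphatidylethanolamine. Its signal was 143 and 128 in the wild type, 523, 495 and 609 in the single mutant and 610, 589 and 601 in the double mutant. The wild type lay far below both mutants, which overlapped. EPT1 was 4.01-fold higher in the single mutant than in the wild type (log2 fold change 1.37, SE 0.09, limma adjusted p = 1.6e-05) and 4.43-fold higher in the double mutant (log2 fold change 1.49, SE 0.09, limma adjusted p = 7.9e-07). Because EPT1 was dim in the wild type, its log2 values understate these ratios, and with a pseudocount of 1 the log2 fold changes were 1.99 and 2.14. Between the mutants the log2 fold change was 0.12 (95% interval -0.05 to 0.30, limma adjusted p = 0.186), which was called with quantile normalization (log2 fold change 0.25, limma adjusted p = 0.016) and median centring (log2 fold change 0.25, limma adjusted p = 0.015).

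CPT1 (YNL130C, chromosome XIV) encodes the choline phosphotransferase, which completes phosphatidylcholine. It had signals of 794 and 771 in the wild type, 1094, 1240 and 1163 in the single mutant and 1080, 1221 and 1111 in the double mutant. As with EPT1, the wild type lay below both mutants and the mutants overlapped. CPT1 was 1.49-fold higher in the single mutant than in the wild type (log2 fold change 0.51, SE 0.09, limma adjusted p = 1.4e-03) and 1.45-fold higher in the double mutant (log2 fold change 0.48, SE 0.09, limma adjusted p = 8.5e-04). Between the mutants it was at -0.03 in log2 units (95% interval -0.21 to 0.14, limma adjusted p = 0.726).

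**Figure D2:**
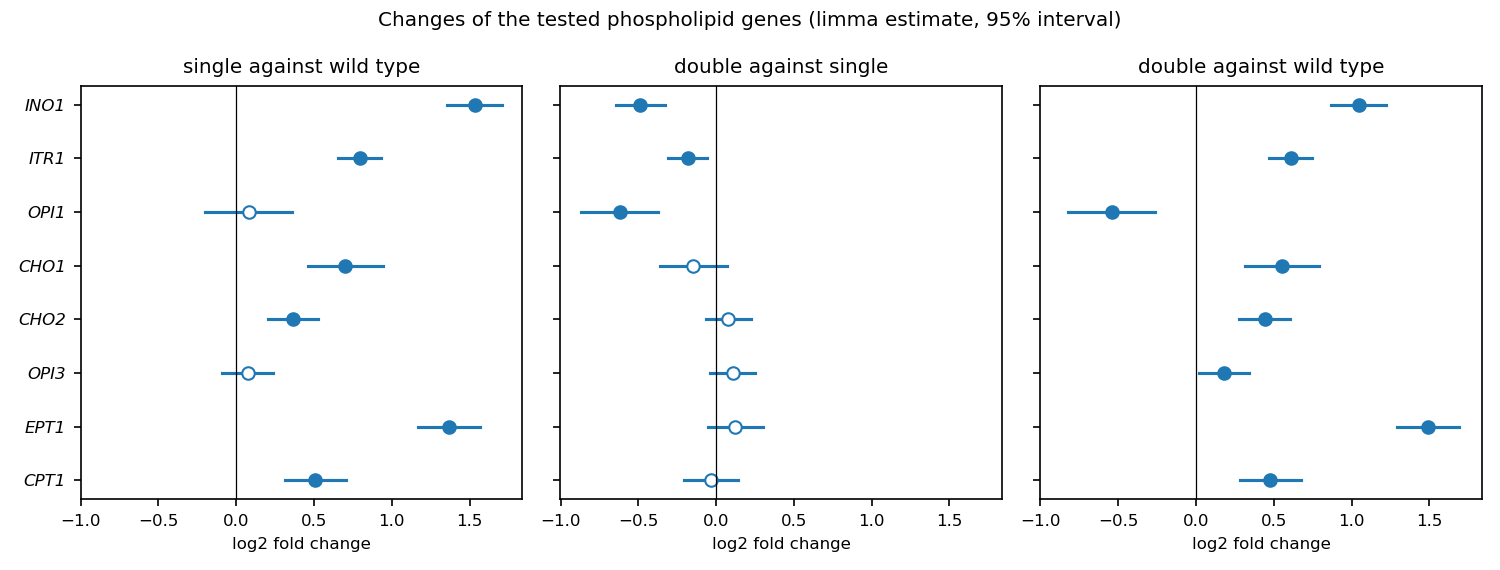
Log2 fold change of the 8 tested phospholipid genes in the 3 comparisons, with limma 95% intervals. Filled points are called and open points are not. From the wild type to the single mutant 6 of 8 are called, all higher, and between the mutants INO1, ITR1 and OPI1 are called lower.

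Counted together, the single mutant set against the wild type, which shows what went with sup2- while ESA1 was intact, had 6 of the 8 tested genes called higher and none lower, OPI1 and OPI3 being the others. EPT1, among these 6, passed the filter through its mutant arrays. Over all tested probe sets 50.6% were called, 28.5% higher and 22.1% lower. The median log2 fold change of the 8 genes was 0.61, against 0.0058 over all. Arrays of both strains did not overlap for 7 of the 8, against 77.8% of all. Of all calls 56.3% were higher, against 67.1% with scaling on poly-A controls, 70.4% on hybridization controls, 51.0% with quantile normalization and 48.0% with median centring, and 5 to 7 of the genes were called higher over 20 alternatives, counting INO2 where no filter was used.

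Both mutants carry sup2-, so setting one against the other shows what went with esa1. Here 3 of the 8 were called, INO1, ITR1 and OPI1, all lower, against 67.6% of all tested probe sets (31.8% higher and 35.8% lower). Arrays did not overlap for 4 of the 8, against 70.8% of all. The median of the 8 was -0.09 and that of all was -0.02. Of all calls 47.0% were higher, against 60.0% with median centring, 68.3% with scaling on poly-A controls and 37.6% on hybridization controls. The median of all tested probe sets, -0.02 as deposited, became 0.11 with median centring, 0.18 with poly-A controls and -0.13 with hybridization controls. Directions near 0 therefore depend on the scaling. Median centring used all 5498 S. cerevisiae probe sets, before the dim ones were left out, so it need not bring the median of the tested ones to 0. With poly-A controls 1 of the 8 was called, OPI1, whose direction and call held under all 20 alternatives. With quantile normalization 5 were called, 1 higher and 4 lower, and with median centring 5, 3 higher and 2 lower.

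In the double mutant against the wild type all 8 tested genes were called, 7 higher and OPI1 lower, against 74.5% of all tested probe sets (37.9% higher and 36.6% lower). EPT1, which passed the filter through its mutant arrays, is among the 7. The median of the 8 was 0.51 and that of all was 0.015. Arrays did not overlap for 8 of 8, against 81.8% of all. Of all calls 50.9% were higher, against 66.7% with scaling on poly-A controls, which moved the median of all to 0.24. The 3 comparisons share strains, so their counts are not independent.

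**Figure D3:**
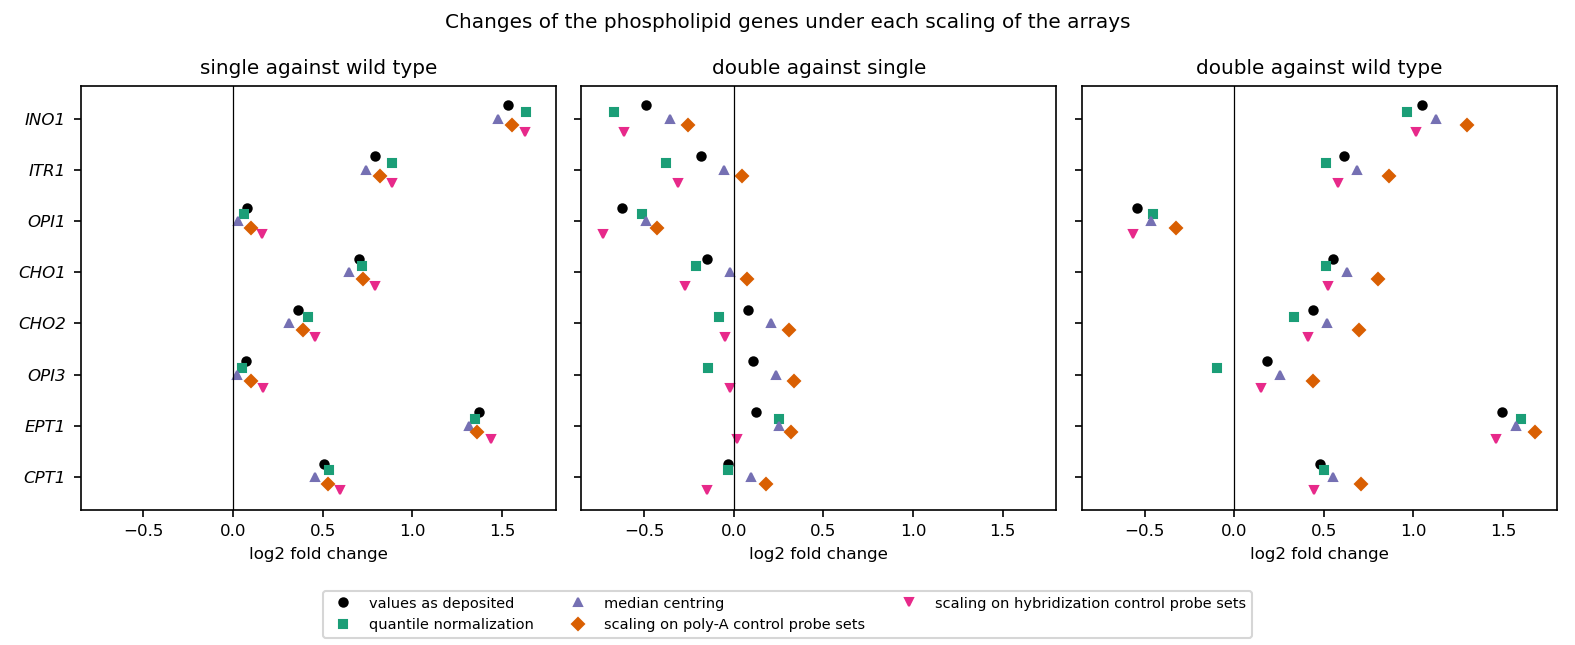
Log2 fold change of the 8 tested phospholipid genes with the values as deposited (black) and under 4 other scalings of the arrays. INO1, ITR1, CHO1, CHO2, EPT1 and CPT1 stay above 0 in both comparisons with the wild type, while CHO1, CHO2, OPI3, CPT1 and ITR1 cross 0 between the mutants.

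Spread between replicates differed among the genes. In the single mutant, OPI3 and OPI1 were nearly identical on the 3 arrays (SD of log2 values 0.0062 and 0.0085, against a median of 0.073 over all tested probe sets), while CHO1 spread more than most (0.18). In the double mutant OPI1 spread most of the 8 (0.24, against a median of 0.13), and EPT1 and ITR1 least (0.022 and 0.030).

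From the wild type to the single mutant, genes lying next to the 9 were called higher, called lower or not called, whichever way the member went. Of all tested probe sets, 50.6% were called at this step. Beside INO1, SNA3 was at -0.11 in log2 units from the wild type to the single mutant (SE 0.08, limma adjusted p = 0.278) and VPS35 one of -0.26 (SE 0.09, limma adjusted p = 0.036), while INO1 rose. Beside ITR1, PUF6 was called higher at the same step (log2 fold change 0.66, SE 0.11, limma adjusted p = 1.4e-03), as was CIA2 beside EPT1 (log2 fold change 0.45, SE 0.08, limma adjusted p = 2.2e-03). MTR3 beside CHO2 was higher too (log2 fold change 0.31, limma adjusted p = 0.030). KIN1 beside INO2 (log2 fold change -0.49, limma adjusted p = 0.031) and TOM22 beside CPT1 (log2 fold change -0.36, limma adjusted p = 4.6e-03) were lower, against INO2 and CPT1. Beside OPI3 and OPI1, which were not called, NPA3 (log2 fold change 0.81) and APM2 (0.28) were called higher and AIM17 (-0.38) lower. SEC20, on the other side of ITR1, was not called there (log2 fold change 0.13, limma adjusted p = 0.357). Between the mutants PUF6 rose further (log2 fold change 1.09, limma adjusted p = 2.3e-05), while ITR1 was at -0.18. These neighbours were picked for the text after their values were seen.

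The probe sets whose values over the 8 arrays were most like those of INO1 were those of DUN1, FAF1, ALK2, ICP55 and TRM9. Likeness was the root mean square distance between log2 values centred on each probe set's mean, and it was 0.12, 0.13, 0.13, 0.15 and 0.16 for these, against 0.60 for INO1 from its own mean. DUN1, a kinase of the DNA damage response, averaged 545 in the wild type, 1602 in the single and 1124 in the double mutant. Among 4398 probe sets on 8 arrays such close matches carry no statement on shared control. The nearest to the other genes were BUD27 to ITR1 (0.026), COA2 to OPI1 (0.046), RPF1 to CHO1 (0.066), YDL012C to CHO2 (0.047), PFY1 to OPI3 (0.045), RRM3 to EPT1 (0.069) and FUN30 to CPT1 (0.051). None of these is one of the 9.

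The rest of phospholipid metabolism was followed through 55 further genes in 8 roles, of which 53 were tested. From the wild type to the single mutant 13 were called higher and 18 lower (median log2 fold change -0.12), beside 28.5% higher and 22.1% lower of all tested probe sets. The balance turned to 13 higher and 6 lower with scaling on hybridization controls and to 8 and 6 on poly-A controls. Without wild-type replicate 1 it was 9 and 6, and without wild-type replicate 2 it was 8 and 7. Between the mutants 13 were higher and 23 lower in the double mutant (median -0.18), 36 of 53 beside 67.6% called of all, so the count called was near the background. Against the wild type 15 were higher and 26 lower (median -0.21), 41 of 53 beside 74.5% of all, again near it. With scaling on poly-A controls these became 14 higher and 7 lower, and 18 higher and 14 lower, so the direction of the list depends on the scaling.

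Several partners of the 9 genes in precursor supply rose in the single mutant. CDS1, which makes the CDP-diacylglycerol used by Cho1, went from 523 in the wild type to 1351 (log2 fold change 1.19, SE 0.11, limma adjusted p = 5.6e-05). HNM1, the choline transporter, was higher too (log2 fold change 0.64, SE 0.10, limma adjusted p = 9.1e-04). ITR2, the second inositol transporter, had 0.45 (SE 0.12, limma adjusted p = 0.013), which was not called without wild-type replicate 1 or 2 (limma adjusted p = 0.083 and 0.065). At this step 2 of the 4 tested genes of choline and ethanolamine uptake and activation were higher. ECT1, named after its values were seen, was the 1 called lower. Of 4 other genes of the CDP-diacylglycerol route 2 were higher and 1, TAM41, lower. TAM41, named at this step after its values were seen, went from 1744 to 848 (log2 fold change -0.95, SE 0.09, limma adjusted p = 6.2e-05). INM2, of inositol supply, also named at this step after its values were seen, was called lower as well (log2 fold change -0.33, limma adjusted p = 0.037). Of all tested probe sets, 28.5% were called higher and 22.1% lower there. PSD1, the mitochondrial phosphatidylserine decarboxylase, named here after its values were seen, averaged 385 in the wild type, 1005 in the single and 1542 in the double mutant. It was higher in the double mutant than in the wild type (log2 fold change 1.72, SE 0.11, limma adjusted p = 1.3e-06).

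The inositol monophosphatase genes, whose products act directly after Ino1, went opposite ways in the double mutant. INM2 averaged 1127 in the wild type, 877 in the single and 360 in the double mutant (log2 fold change -1.05, SE 0.10, limma adjusted p = 2.9e-05 between the mutants, and log2 fold change -1.38, SE 0.11, limma adjusted p = 5.7e-06 against the wild type). INM1, named after its values were seen, averaged 139, 227 and 583 (between the mutants log2 fold change 1.03, SE 0.11, limma adjusted p = 5.9e-05). INM1 passed the filter on dim probe sets through its double-mutant arrays, so its call carries no separate weight. PCT1, which makes the CDP-choline used by Cpt1, rose from 388 in the single to 800 in the double mutant (log2 fold change 0.85, SE 0.07, limma adjusted p = 1.6e-05), while CPT1 itself was not called between them. Against the wild type PCT1 was higher too (log2 fold change 0.83, SE 0.08, limma adjusted p = 1.8e-05).

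Genes that make or use phosphatidate, the lipid that Opi1 senses, were called in both directions. DGK1, the diacylglycerol kinase that makes it, rose from the single to the double mutant (log2 fold change 0.68, SE 0.08, limma adjusted p = 1.2e-04). SLC1, an acyltransferase that makes it, was higher in the double mutant than in the wild type (log2 fold change 1.33, SE 0.11, limma adjusted p = 7.0e-06). SPO7, a subunit of the phosphatase that activates Pah1, was lower in the single mutant than in the wild type (log2 fold change -0.56, SE 0.08, limma adjusted p = 5.6e-04). PAH1, the phosphatidate phosphatase, named after its values were seen, was lower in the double mutant than in the wild type (log2 fold change -0.69, SE 0.08, limma adjusted p = 6.8e-05). The largest decrease of this role was that of GPT2, a gene of phosphatidate supply, also named after its values were seen. GPT2 averaged 2644 in the wild type, 1638 in the single and 598 in the double mutant (double mutant against wild type log2 fold change -2.00, SE 0.23, limma adjusted p = 4.4e-05). Of the 11 genes of this role, 4 were called higher and 4 lower in the double mutant against the wild type. Of all tested probe sets, 37.9% were called higher and 36.6% lower there, so these counts were near the background.

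Among the 7 other regulators, UME6, which brings Sin3 and Rpd3 to INO1, was higher in the single mutant than in the wild type (918 against 376, log2 fold change 1.06, SE 0.11, limma adjusted p = 1.3e-04) and in the double mutant (log2 fold change 0.81, SE 0.11, limma adjusted p = 1.7e-04). RPD3, the deacetylase, fell from 802 in the single to 571 in the double mutant (log2 fold change -0.42, SE 0.07, limma adjusted p = 9.3e-04), a call lost with scaling on poly-A controls (limma adjusted p = 0.291). RPD3 against the wild type is given after its values were seen. It was not called in the single mutant (log2 fold change -0.12, limma adjusted p = 0.255) and was lower in the double mutant (log2 fold change -0.53, limma adjusted p = 2.9e-04). The alternatives were not run for RPD3 in these comparisons. SIN3, named after its values were seen, was lower than in the wild type in the single mutant (log2 fold change -0.57, SE 0.14, limma adjusted p = 0.010) and in the double mutant (log2 fold change -0.78, SE 0.14, limma adjusted p = 9.9e-04). In the double mutant against the wild type 3 of the 7 regulators were higher and 4 lower, beside 37.9% higher and 36.6% lower of all tested probe sets.

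The counts of the remaining roles are between the mutants and stand beside 31.8% higher and 35.8% lower of all tested probe sets. Over all 8 roles the 13 higher and 23 lower became 14 and 7 with scaling on poly-A controls. The counts of lower genes given here therefore depend on the scaling. In the role of phosphatidylglycerol and cardiolipin 4 of 4 tested genes were lower in the double mutant, with CLD1, a cardiolipin lipase, at -1.26 in log2 units (SE 0.09, limma adjusted p = 4.5e-06). GEP4, the phosphatidylglycerophosphatase, had been higher in the single mutant than in the wild type (log2 fold change 0.50, SE 0.07, limma adjusted p = 5.9e-04). TAM41, the mitochondrial CDP-diacylglycerol synthase, was at -0.88 between the mutants (SE 0.08, limma adjusted p = 1.9e-05). Of 9 genes of breakdown and reuse, 4 were lower and 1 higher. GIT1, the transporter of glycerophosphoinositol, went from 679 in the single to 96.7 in the double mutant, 7.02-fold lower (log2 fold change -1.92, SE 0.20, limma adjusted p = 4.1e-05). Its double-mutant arrays were dim and spread widely (48.0, 179 and 63.2). Over the alternatives its log2 fold change ran from -3.04 to -1.46. NTE1, a phospholipase, was higher in the single mutant than in the wild type (log2 fold change 0.73, SE 0.10, limma adjusted p = 4.7e-04). Against the wild type the double mutant was lower in CLD1 (log2 fold change -1.79, SE 0.10, limma adjusted p = 5.3e-07), TAM41 (log2 fold change -1.83, SE 0.09, limma adjusted p = 2.5e-07), GIT1 (log2 fold change -1.99, SE 0.22, limma adjusted p = 3.7e-05) and FAB1 (log2 fold change -0.94, SE 0.07, limma adjusted p = 4.2e-06). Of 11 genes of inositol lipid kinases and inositol sphingolipids, 6 were lower and 2 higher. FAB1, the kinase that makes phosphatidylinositol 3,5-bisphosphate, was at -0.99 (SE 0.07, limma adjusted p = 3.4e-06), and LSB6, a phosphatidylinositol 4-kinase, was lower in the single mutant than in the wild type (log2 fold change -0.44, SE 0.09, limma adjusted p = 3.2e-03), a call lost with scaling on poly-A controls (log2 fold change -0.42, limma adjusted p = 0.054).

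**Figure D4:**
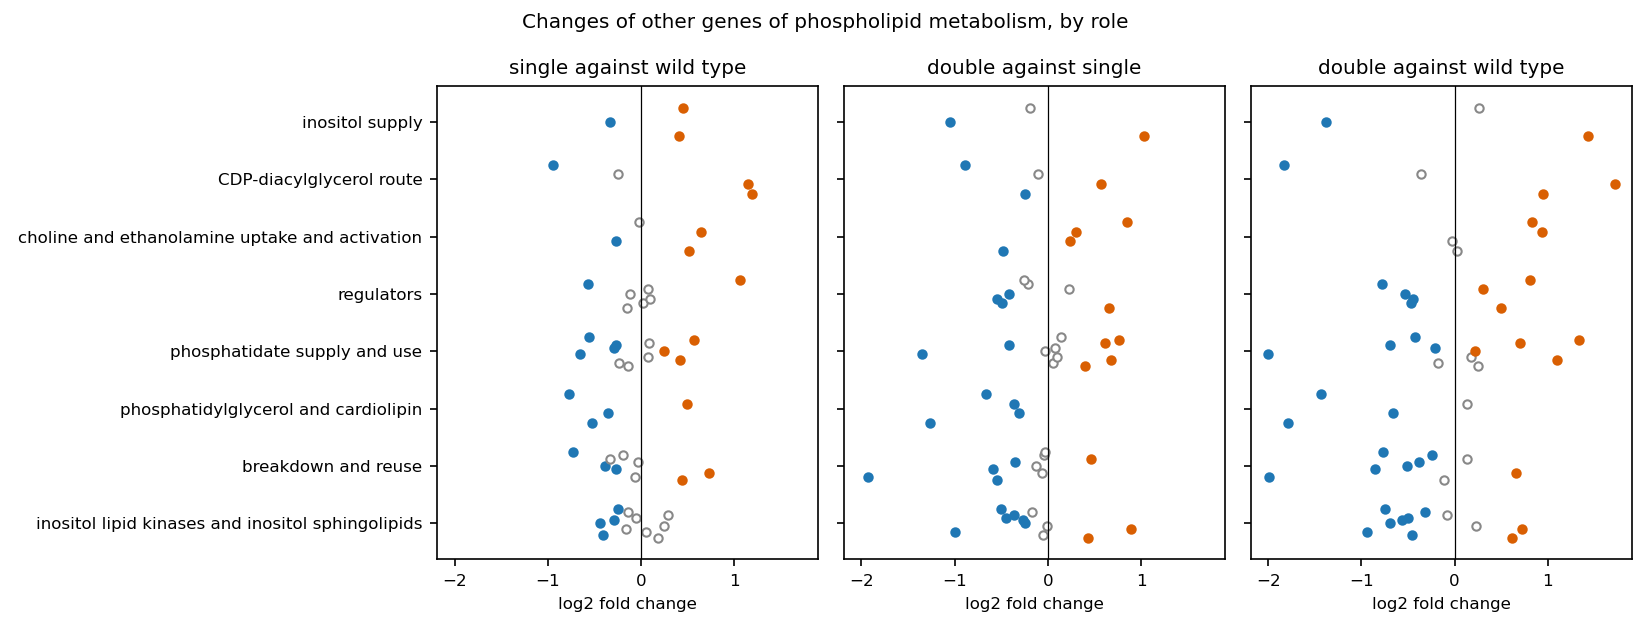
Log2 fold change of the 53 tested genes in other roles of phospholipid metabolism, 1 point per gene. Orange points are called higher, blue points called lower and open points not called. In the single mutant 13 are higher and 18 lower, and between the mutants 13 are higher and 23 lower.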

How the data were processed

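RNA was extracted with hot phenol and biotin-labelled from 5 µg per array, per the labels' protocols. Signals are the authors' deposited intensity values per probe set, linear, from MAS5 and GCOS according to the submitters' processing notes (versions not given in the sources used here). Trimmed by 2% at each end, array means were 500.2 to 500.3. Of 10928 probe sets, 5498 match 1 S. cerevisiae gene through the platform annotation and RefSeq identifiers, after updating 12 symbols. Coordinates are left out because the array's build is not named. The deposited instrument records gave fluidics station and module.

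From the signals, log2(signal + 121) was computed, 121 being their rounded 10th percentile. After leaving out the dimmest 20%, 4398 probe sets (4372 genes) were fitted on all 8 arrays together with limma 3.58.1 in R 4.3.3 (lmFit, eBayes with an intensity trend, Benjamini-Hochberg over all). A gene with several probe sets was read from its brightest. Each array's background bound was the 99th percentile of the probe sets whose listed gene the S. cerevisiae table lacks, and 97.6% to 99.3% of S. cerevisiae probe sets exceeded it. The number of arrays limits the precision. The fit was tested on simulated data.

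Members, lists and tests were chosen with earlier results of these data known. Other genes named are INO4 and, per role and comparison, the called gene with the smallest unadjusted p, and exceptions are marked. The alternatives were run for the members and for genes named by this rule, in the comparison where it named them. Values of the other genes named after being seen were not put through the alternatives. Alternatives were 2 pseudocounts, 2 filters, 4 scalings, a fit with no intensity trend, a fit of the compared strains alone, a replicate block, and leaving out single arrays. The fluidics module number as a block was added after seeing the data. Equal numbers on different stations are different modules, so that block stands for no shared device and supports nothing here. Whether control RNA was spiked in is not given in the labels, so the scalings on poly-A and hybridization controls rest on probe sets whose input is unknown. Of the genes listed for this pathway, 1 is not reported here and enters none of the counts of members. Promoter and protein sequences were not used here, and the planned promoter search was not run. Figures were drawn with matplotlib 3.10.9.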

Additional observations from a re-analysis of the deposited data

How the results depend on the processing

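Of 477 log2 fold changes of the 8 tested genes over 20 alternatives, 444 kept direction and side of the threshold, 15 lost the call, 6 gained it and 12 changed sign. Several alternatives cannot change the estimate, only its adjusted p, so the 444 overstate how much was put to the test. These are the filters, no intensity trend, the compared strains alone, and leaving out an array of the third strain. The module block is also among the 20. Causes were not tested. In the comparisons with the wild type INO1, ITR1, CHO1, EPT1 and CPT1 kept both throughout. EPT1 was not tested without the dimmest 50% of probe sets. Sign changes between the mutants were, with quantile normalization, CHO2 at -0.084 and OPI3 at -0.14 (limma adjusted p = 9.9e-03). Median centring gave CPT1 0.098. Poly-A control scaling gave ITR1 0.047, CHO1 0.077 and CPT1 0.18. Hybridization control scaling gave CHO2 -0.047 and OPI3 -0.019. In the double mutant against the wild type OPI3 was at -0.094 with quantile normalization. INO4 from the wild type to the single mutant was at -0.045 with quantile normalization, -0.029 with median centring and -0.010 with the module number as a block. With each array left out in turn it ran from -0.13 to 0.18, OPI3 in that comparison from -0.013 to 0.16 and CPT1 between the mutants from -0.080 to 0.0090.

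Of the 8 tested genes, the 3 called between the mutants became 1 with poly-A scaling, 5 with quantile normalization and 5 with median centring. From the wild type to the single mutant, calls over all probe sets, 2227, became 1377 without the dimmest 50% (fewer tested) and 1218 with poly-A scaling, and ran from 1406 to 2516 with an array left out. The 31 calls among other phospholipid genes became 20, 14 and, with hybridization control scaling, 19, and ran from 15 to 35. Without the dimmest 50%, the 2971 and 3277 calls of the double mutant against the single mutant and wild type became 1930 and 2092, and the 36 and 41 other phospholipid genes 23 and 24. With poly-A scaling the 36 became 21.

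With the replicate block 6, 3 and 8 of the tested genes were called in the 3 comparisons, as without it, and 2033, 2894 and 3196 probe sets in all. It changed no call of the tested genes. Correlations of deviations from strain means ran from -0.09 to 0.14 in 7 pairs of same-numbered arrays of different strains. In 14 pairs with different numbers they ran from -0.14 to 0.13. The deviations of the 2 wild-type arrays mirror each other, so the pairs are not independent. The check therefore cannot show whether the numbers pair the samples.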
